A study of Mus musculus with 10 samples.

Results

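The proteasome genes of mouse ileal crypts were followed across crypts labelled STAT5IEC+++, STAT5IEC-/- and STAT5+/+. The members are the protein-coding genes whose mouse symbol is Psm, then a letter from a to g and a digit. The rule found 49 of the 28987 Ensembl gene IDs in the files, of which 20187 are protein-coding. Psmb9, the third catalytic subunit of the immunoproteasome, is not analysed here, because none of the IDs in the files maps to it. Of the 49 members, 8 encode alpha ring subunits, 4 beta ring subunits without catalytic activity, 3 the constitutive catalytic subunits (Psmb5, Psmb6, Psmb7) and 2 catalytic subunits of the immunoproteasome (Psmb8, Psmb10). A further 1 encodes the thymus-specific catalytic subunit, 6 the ATPases and 11 the other subunits of the 19S particle, 7 assembly chaperones, and 5 activators or the inhibitor Psmf1. Psmc3ip, a recombination protein, and Psme2b, a near-copy of Psme2, match by symbol only.

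OE, KO and Ctrl are the 3 groups, with 5, 2 and 3 libraries of total RNA sequenced single-end. OE is labelled VilCreER;icS5 (STAT5IEC+++), KO VilCreER;Stat5 (STAT5IEC-/-) and Ctrl VilCreER;Stat5 (STAT5+/+). All mice are labelled C57Bl6, male and 12 weeks old, and all groups carry the VilCreER transgene, in which a villin promoter drives an inducible Cre in the intestinal epithelium. The labels do not spell out icS5, and no Ctrl of the icS5 line is analysed here, so allele and line cannot be told apart in OE. The labels do not tie libraries to separate animals, and p-values therefore measure only the spread between samples, part of which may be technical.

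The proteasome degrades proteins tagged with ubiquitin. Its 20S core is a barrel of outer alpha rings and inner beta rings, and 3 of the beta subunits cut peptides: Psmb6 after acidic residues, Psmb7 after basic residues and Psmb5 after hydrophobic residues. Interferon-gamma induces the replacements Psmb9, Psmb10 and Psmb8, which take the places of Psmb6, Psmb7 and Psmb5 in the immunoproteasome and favour peptides that fit MHC class I molecules. The 19S particle recognises, unfolds and feeds substrates into the core, PA28 (Psme1 with Psme2) is an interferon-inducible cap, and the transcription factor NRF1 (Nfe2l1) raises constitutive subunits together when proteasome activity is short. In the gut, immunoproteasome subunits are found in epithelial cells as well as leukocytes.

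Upstream stretches of 3 genes are shown because they carry the letters of response elements of the STAT and NRF1 types beside a gene of each catalytic set. They come from RefSeq (GRCm38.p6), run 5′ to 3′ on the gene's strand, and have the motif in capitals. The Psmb8 stretch, chr17:34198088-34198116 (+), holds a STAT type motif and lies inside an annotated 5′ UTR of another Psmb8 transcript, so only the motif with 10 bases on each side is printed. The Psmb5 stretch is chr14:54618023-54618245 (-) and the Psmb6 stretch chr11:70525107-70525356 (+), both with an antioxidant type motif.
Psmb8: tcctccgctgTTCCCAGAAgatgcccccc
Psmb5: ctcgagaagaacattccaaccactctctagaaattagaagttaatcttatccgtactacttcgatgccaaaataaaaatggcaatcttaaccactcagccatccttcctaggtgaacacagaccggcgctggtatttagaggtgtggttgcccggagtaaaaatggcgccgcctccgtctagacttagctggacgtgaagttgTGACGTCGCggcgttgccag
Psmb6: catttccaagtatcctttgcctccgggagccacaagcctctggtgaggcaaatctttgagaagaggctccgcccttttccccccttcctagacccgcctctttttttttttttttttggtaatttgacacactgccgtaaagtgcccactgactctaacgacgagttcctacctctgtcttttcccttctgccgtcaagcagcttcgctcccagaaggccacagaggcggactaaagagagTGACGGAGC

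Motifs were searched on both strands of windows from 250 bases before to 50 bases after each start, for 41 of the 49 members. Psma8 and Psmg2, the members on chromosome 18, were left out of the search. Shares of members count genes with a match in any of their windows, and shares of all windows count single windows. The antioxidant type, TGACNNNGC, was in the windows of 6 members (Psmb5, Psmb6, Psmc6, Psmd9, Psmd12 and Psme4), or 14.6%, against 12.4% of all 32851 windows. The STAT type, TTCNNNGAA, was in those of 3 members (Psmb8, Psmd2 and Psmg1), or 7.32%, against 8.30% of all windows. The interferon type, GAAA with a second GAAA after 2 further bases, was in those of 5 members (Psmb3, Psmd4, Psmd9, Psme1 and Psmg4), or 12.2%, against 3.44% of all windows. The Psmb10 and Psmb7 windows held none of the 3. No motif match overlapped a match of another type in the printed stretches. A match describes the letters of a window and is no binding site.

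Values are scaled TPM: the deposited TPM, a share of all transcripts that takes their length into account, divided by a median-ratio factor per library, so levels are per length and comparable between genes. The depth behind them is unknown, since TPM hold no numbers of reads. Ctrl 2 stood apart, with 83.7% of its TPM on mitochondrially encoded transcripts against 43.3% to 57.0% in the other 9 libraries and 8263 genes at 1 TPM or more against 11050 to 11932. Summed Y-linked TPM were 3.45 in Ctrl 3, 0.250 in OE 3 and 0.140 in OE 4, against 32.3 to 131 in the remaining 7, while the labels give male mice throughout. Stat5a had 1.56, 2.10, 3.55, 2.81 and 2.81 scaled TPM in the 5 OE libraries, 0.637 and 0.336 in the KO libraries, and 1.51, 2.60 and 1.07 in the Ctrl libraries. Stat5b had 1.49, 3.50, 4.71, 5.53 and 2.65 in OE, 0.482 and 0.430 in KO, and 1.72, 1.76 and 0.970 in Ctrl. The library labelled OE 1 lay within the Ctrl range for both genes. Summed markers of the epithelium were between 2750 and 4452 scaled TPM in every library. Paneth and stem cell markers of the crypt summed to 299.9 scaled TPM in Ctrl 2, against 2010.2 to 8454 in the other libraries, and enterocyte markers to 9799 in Ctrl 2, against 665 to 7283.

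Proteasome genes were among the more abundant transcripts of the crypts: the 46 members that passed the filter (2 or more libraries at a deposited TPM of 1 or above) had a median level of 44.3 scaled TPM over the 10 libraries, against 7.43 for all 13056 genes tested. Psma8, a testis form, Psmb11, the thymus form, and Psmd8, a lid subunit, did not pass. Psmb11 reached at most 0.474 and Psma8 at most 0.250 scaled TPM in any library. Psmd8 was listed at 0 in 9 libraries and at 0.274 in KO 2. The lid needs Psmd8 in every cell, so a value of 0 in these files is a listed value and cannot be read as a missing transcript.

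Within the 20S core, alpha ring genes had a median level of 109 scaled TPM, from 30.0 for Psma2 to 131 for Psma4, and the non-catalytic beta ring genes one of 85.5, from 52.5 for Psmb1 to 120.0 for Psmb4. The catalytic genes were lower, at 17.3 for Psmb5, 32.8 for Psmb6, 44.3 for Psmb7, 34.3 for Psmb8 and 49.2 for Psmb10. In the 19S particle, the ATPases ran from 22.1 for Psmc1 to 99.9 for Psmc3 and the other subunits from 41.3 for Psmd7 to 220 for Psmd3. Assembly chaperones were the least abundant role group, from 1.04 for Psmg3 to 12.0 for Psmd5. Of the PA28 genes, Psme2 had the highest mean of the members at 225. Psme1, at 173, was below Psmd3 and below Psmd14, at 199. Genes whose proteins sit in fixed numbers in one complex thus differed in mean level 4.37-fold within the alpha ring and 5.32-fold among the 19S non-ATPase genes. The mean of Psmd3 includes 538 scaled TPM in KO 2. Its median over the 10 libraries was 186, against 201 for Psmd14.

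Across the 10 libraries, the spread of the members was at the low side of that of genes in general. The SD of log2(scaled TPM + 1) had a median of 0.373 over the 46 members, against 0.476 over all genes tested and 0.423 over the 2310 genes whose mean lay in the middle of the members' range, from 22.3 to 97.0. Psmf1, which binds and inhibits the core, was the steadiest at 0.182, followed by the ATPase Psmc6 at 0.206 and the lid subunit Psmd11 at 0.226. Psmb5 at 0.822, Psmd3 at 0.815 and the ATPase Psmc3 at 0.806 varied most among members above 10 scaled TPM. Ctrl 2 held the lowest value of 21 of the 46 members. OE 1 held the highest value of 14 and KO 2 that of 11.

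The catalytic subunits carry the contrast that the immunoproteasome is defined by. Psmb8 (chr17:34197721-34201454, + strand, within the MHC region) had 53.0, 47.2, 22.2, 30.5 and 44.5 scaled TPM in the 5 OE libraries, 16.5 and 32.6 in the KO libraries, and 17.5, 41.9 and 36.8 in the Ctrl libraries. The groups overlapped, and the lowest values came from 1 library of each of KO, Ctrl and OE. Psmb10 (chr8:105935735-105938444, - strand) had 71.1, 55.0, 36.9, 40.8 and 61.7 in OE, 42.9 and 56.3 in KO, and 39.7, 48.7 and 39.3 in Ctrl. OE 1, OE 5 and KO 2 were high and the groups overlapped again. In OE, the libraries lowest for both genes were OE 3 and OE 4, the libraries low in Y-linked transcripts.

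Psmb5 (chr14:54614119-54618022, - strand), which Psmb8 replaces, had 25.3, 18.1, 17.1, 17.6 and 23.1 scaled TPM in OE, 18.3 and 14.3 in KO, and 11.7, 2.72 and 24.7 in Ctrl. The value of Ctrl 2 was far below all others, and Ctrl 3 was within the OE range. Psmb6 (chr11:70525367-70527858, + strand) had 47.9, 29.8, 42.9, 34.8 and 39.8 in OE, 31.8 and 24.4 in KO, and 20.1, 28.3 and 28.2 in Ctrl. Every OE library lay above every Ctrl library for Psmb6. Psmb7 (chr2:38588036-38644087, - strand), which Psmb10 replaces, had 55.1, 53.8, 26.6, 37.5 and 69.7 in OE, 50.3 and 34.6 in KO, and 39.0, 37.0 and 39.7 in Ctrl. The Ctrl libraries were close together and the OE libraries spread on both sides of them.

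**Figure D1:**
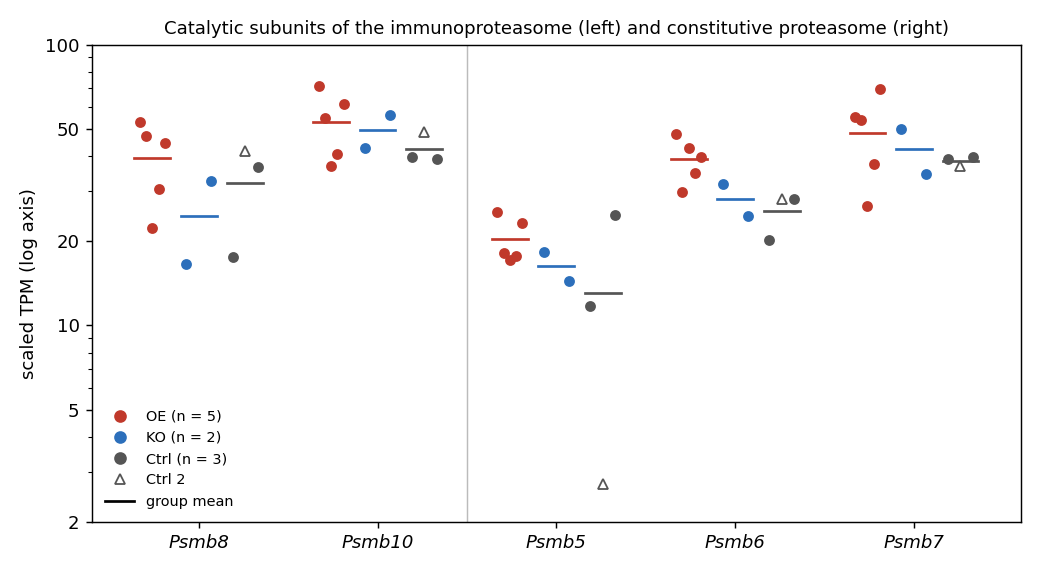
Scaled TPM (log axis) of Psmb8 and Psmb10, catalytic subunits of the immunoproteasome, and of Psmb5, Psmb6 and Psmb7, their constitutive counterparts, with a point per library, a bar at each group mean and Ctrl 2 as an open triangle. The Psmb5 value of Ctrl 2, 2.72, stands far below the others, and Psmb6 is the gene whose OE points, from 29.8, all lie above the Ctrl points, up to 28.3.

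The balance between the catalytic sets was in the same range in OE and in the Ctrl libraries other than Ctrl 2. The mean log2 of Psmb8 and Psmb10 minus that of Psmb5, Psmb6 and Psmb7 was 0.42 ± 0.25 in OE (SD, n = 5), 0.35 ± 0.78 in KO (n = 2) and 0.78 ± 0.77 in Ctrl (n = 3). In single libraries it was 0.60, 0.73, 0.090, 0.31 and 0.39 in OE, -0.21 and 0.90 in KO, and 0.33, 1.67 and 0.33 in Ctrl. KO 1 was the one library in which the constitutive set was the higher, and the KO libraries differed from each other by more than the group means did. The group means differed by -0.35 between OE and Ctrl, by -0.43 between KO and Ctrl and by 0.078 between OE and KO, each smaller than the SD within Ctrl and within KO. Without Ctrl 2 the difference was 0.093 between OE and Ctrl and 0.015 between KO and Ctrl, and between OE and KO it was -0.48 without KO 1 and 0.63 without KO 2.

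As a share of summed TPM, Psmb8 made up 67.7%, 72.3%, 56.6%, 63.4% and 65.8% of Psmb8 plus Psmb5 in OE, 47.5% and 69.5% in KO, and 59.9%, 93.9% and 59.8% in Ctrl. The share of 93.9% belongs to Ctrl 2 and goes with its low Psmb5. Psmb10 made up 46.9% to 58.1% of Psmb10 plus Psmb7 in OE, 46.0% and 61.9% in KO, and 49.8% to 56.8% in Ctrl. The shares of this pair stayed near even in every group, and KO 1 was the lowest library and KO 2 the highest.

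**Figure D2:**
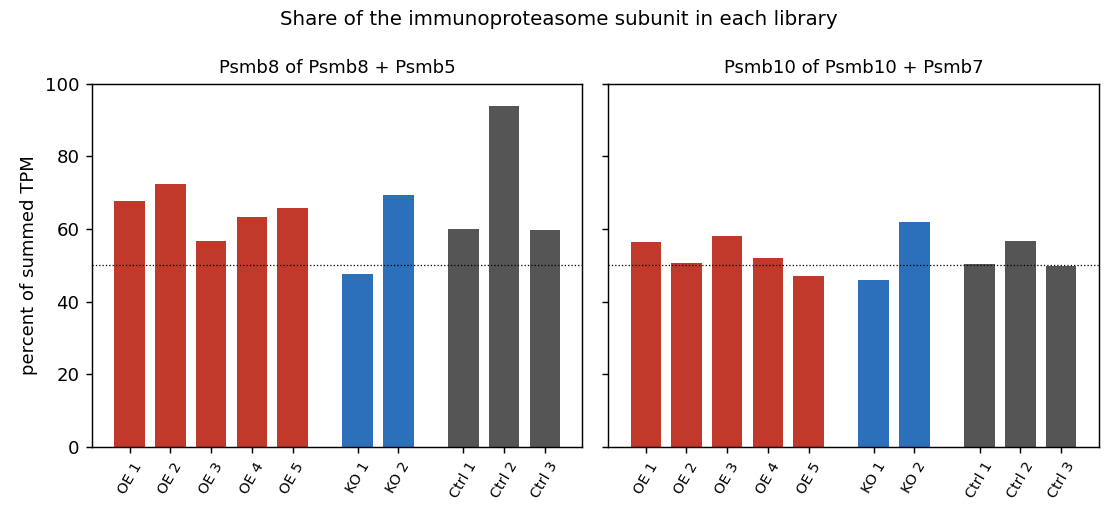
Percent of summed TPM taken by the immunoproteasome subunit in each library, for Psmb8 of Psmb8 plus Psmb5 on the left and Psmb10 of Psmb10 plus Psmb7 on the right, with a dotted line at an even split. Ctrl 2 stands out at 93.9% for Psmb8, and the KO libraries differ for both pairs, with 47.5% and 69.5% for Psmb8 and 46.0% and 61.9% for Psmb10.

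Across the 10 libraries Psmb8 and Psmb10 varied together, with a Pearson r of 0.73 and a Spearman rho of 0.68 on the log2 scale (permutation p = 0.0184 and 0.0345, 0.0735 and 0.0690 adjusted over the 4 pairs computed). Leaving out the 2 libraries farthest from the median of Psmb8 (Ctrl 1 and KO 1) gave r = 0.80. Pairs within the constitutive set had r = 0.42 for Psmb5 with Psmb6, 0.37 for Psmb5 with Psmb7 and 0.26 for Psmb6 with Psmb7 (permutation p = 0.245, 0.294 and 0.476, 0.393, 0.393 and 0.476 adjusted). Their rho were 0.53, 0.75 and 0.31 (permutation p = 0.123, 0.0173 and 0.386, 0.164, 0.0690 and 0.386 adjusted). Without their 2 farthest libraries r was 0.48, 0.56 and 0.060. None of the 4 pairs passed the threshold of 0.05 after adjustment, and the libraries share their groups and their scaling factors.

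In OE crypts, most proteasome genes had a higher mean level than in Ctrl crypts, by small amounts, and none passed the test. The log2 difference between OE and Ctrl was above 0 for 38 of the 46 members (82.6%), against 52.1% of all genes tested. Its median was 0.26 over the members and 0.021 over all genes. Without OE 1, which lay within the Ctrl range for Stat5a and Stat5b, it was above 0 for 38 of 46 members, with a median of 0.20. With all libraries kept, the members above 0 include Psmc3ip and Psme2b, which match by symbol only. Psme2b passed the filter only through OE 3 and OE 4, so its sign in OE follows in part from the filter. No member and no other gene was called by limma at a Benjamini-Hochberg adjusted p of 0.05 (0% of genes), and the smallest adjusted p of a member was 0.755. At an unadjusted p under 0.05 there were 2 members, Psmb6 and Psmd1, or 4.35%, against 6.1% of all genes. Without Ctrl 3 these were 7 of 46 members and 1511 of 12888 genes. Without OE 1 they were 1 member and 617 of 12945 genes. Psmb6 was the 1 member with all OE libraries above all Ctrl libraries (2.17%, against 2.21% of all genes), and 0 members had all OE libraries below (1.52% of all genes).

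By role, all 3 constitutive catalytic genes, both immunoproteasome genes, all 4 non-catalytic beta ring genes and 5 of 7 alpha ring genes had a log2 difference above 0 between OE and Ctrl. So had 5 of 6 ATPases, 9 of 10 other 19S genes, 4 of 5 activators or inhibitors and 4 of 7 chaperones. The median was 0.59 for the constitutive catalytic genes and 0.30 for the immunoproteasome pair. It was 0.36 for the alpha ring, 0.22 for the other beta ring genes, 0.21 for the ATPases and 0.34 for the 19S non-ATPase genes. The lowest medians were 0.066 for the activators or inhibitors and 0.092 for the chaperones. Without Ctrl 2, the constitutive catalytic median was 0.22, the median of all members 0.14, and 36 of 46 members were above 0. Without Ctrl 3 the median of all members was 0.39. The high mitochondrial share, low Paneth and stem cell markers and high enterocyte markers of Ctrl 2 move with these values, and their part in them was not tested.

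The constitutive catalytic genes had log2 differences between OE and Ctrl of 0.98 for Psmb5 (95% interval -0.13 to 2.08), 0.59 for Psmb6 (0.092 to 1.09) and 0.25 for Psmb7 (-0.42 to 0.92), all with limma adjusted p of at least 0.755. The Psmb5 difference was 0.21 without Ctrl 2 and 1.60 without Ctrl 3. Psmb6 averaged 39.1 ± 7.04 scaled TPM in OE and 25.5 ± 4.69 in Ctrl (SD, n = 5 and 3). The immunoproteasome genes had 0.32 for Psmb8 (-0.53 to 1.16) and 0.28 for Psmb10 (-0.28 to 0.84), so changes of about that size in either set cannot be told from none here.

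In the rest of the core, the alpha ring genes with the smallest p in that comparison were Psma5, with a log2 difference of 0.65 (-0.053 to 1.36), and Psma3, with 0.51 (-0.057 to 1.07). Psma5 had 77.7 scaled TPM in OE 1 against 34.5 to 41.6 in the other OE libraries. Among the non-catalytic beta ring genes Psmb4 had 0.64 (-0.037 to 1.32) and Psmb1 0.21 (-0.34 to 0.76). In the 19S particle, the largest base subunit Psmd1 (chr1:86064387-86139151, + strand) had 0.61 (0.11 to 1.11), with 75.5, 64.0, 52.0, 63.6 and 63.2 scaled TPM in OE and 42.9, 30.4 and 53.2 in Ctrl. OE 3, at 52.0, fell short of Ctrl 3, and the other OE libraries were above all Ctrl libraries. Its partner in the base, Psmd2, had 0.40 (-0.14 to 0.95), and 0.13 without Ctrl 2. Psmc3 had 0.88 (-0.23 to 1.99), with 21.3 in Ctrl 2 against 81.0 and 116 in the other Ctrl libraries and a difference of 0.16 without Ctrl 2, and the ATPase Psmc1 had 0.25 (-0.21 to 0.71).

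**Figure D3:**
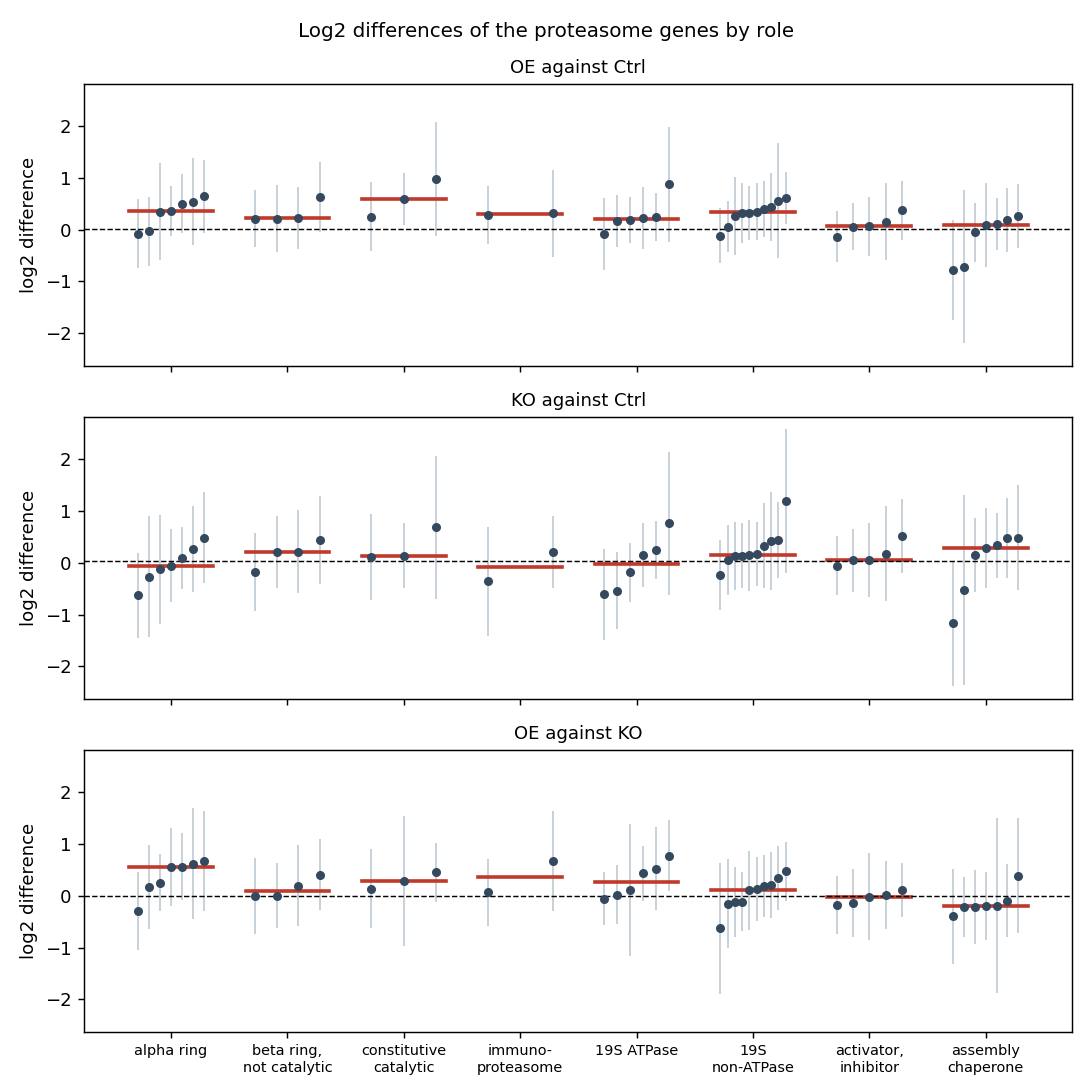
Log2 differences of the members that passed the filter in 8 role groups (Psmc3ip and Psme2b, which match by symbol only, are not drawn), for OE against Ctrl (top), KO against Ctrl (middle) and OE against KO (bottom), as points with 95% limma intervals and a red bar at the median of each role group. Most points lie between -1 and 1 and nearly all intervals cross 0. The constitutive catalytic median of 0.59 in OE against Ctrl and the alpha ring median of 0.56 in OE against KO are the highest bars drawn.

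In KO crypts, proteasome genes differed from Ctrl crypts in both directions, and none passed the test. Of the alpha ring genes 3 of 7 were higher than in Ctrl, of the ATPases 3 of 6, of the other 19S genes 9 of 10 and of the chaperones 5 of 7. So were all 3 constitutive catalytic genes, 3 of 4 non-catalytic beta ring genes, 4 of 5 activators or inhibitors and 1 of 2 immunoproteasome genes. The log2 difference between KO and Ctrl was above 0 for 32 of the 46 members (69.6%), against 53% of all genes, with a median of 0.14 over the members and 0.038 over all genes. Without Ctrl 2 it was above 0 for 24 of 46 and the median was 0.020. Without KO 2 the median was 0.045, and without KO 1 it was 0.26. No member and no other gene was called by limma (0%), the smallest adjusted p of a member was 0.943, and 0 members had an unadjusted p under 0.05 against 3.46% of all genes. That count was 3 of 46 members without Ctrl 1, where 995 of 12930 genes also had an unadjusted p under 0.05. No member had both KO libraries above all Ctrl libraries (9.09% of all genes) and 1 member, Psmg4, had both below (2.17%, against 7.27% of all genes).

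The immunoproteasome genes went different ways by small amounts between KO and Ctrl, with log2 differences of -0.35 for Psmb8 (95% interval -1.41 to 0.70) and 0.21 for Psmb10 (-0.49 to 0.91). The constitutive genes had 0.69 for Psmb5 (-0.69 to 2.07), 0.14 for Psmb6 (-0.49 to 0.76) and 0.11 for Psmb7 (-0.73 to 0.95). The Psmb5 value turned to -0.072 without Ctrl 2. In the alpha ring Psma4 had -0.63 (-1.46 to 0.20) and Psma5 0.49 (-0.40 to 1.37). In the beta ring Psmb4 had 0.44 (-0.40 to 1.29) and Psmb1 0.21 (-0.48 to 0.90). The adjusted p of each of these genes was at least 0.943 by limma.

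Among the 19S genes the ATPases Psmc5 and Psmc4 had -0.54 (-1.29 to 0.21) and -0.61 (-1.49 to 0.27) between KO and Ctrl. Psmd3, a lid subunit, had 1.19 (-0.19 to 2.58), with 174 scaled TPM in KO 1 and 538 in KO 2, against 223, 55.6 and 190 in Ctrl. KO 1 was within the Ctrl range and KO 2 far above it, and the difference was 0.38 without KO 2 and 0.57 without Ctrl 2. Psmd7, the lid partner of the deubiquitinase Psmd14, had 0.44 (-0.29 to 1.17), with 32.3 in KO 1 and 65.4 in KO 2, against 40.0, 25.4 and 37.2 in Ctrl. Of the 44 members above 0 in both KO libraries, 27 were higher in KO 2 and the rest lower. The median ratio of KO 2 over KO 1 was 1.15, against 0.995 over all genes. In descending order, the ratio was 3.09 for Psmd3, 3.08 for Psmc3ip, 3.04 for Psmg1, 2.28 for Psma1, 2.14 for Psme2, 2.02 for Psmd7, 1.97 for Psmb8 and 1.87 for Psme1. It was 1.31 for Psmb10. Among the members lower in KO 2 it was 0.369 for Psma7, 0.585 for Psmd4 and 0.627 for Psma2. The constitutive catalytic genes were also lower in KO 2, with 0.784 for Psmb5, 0.769 for Psmb6 and 0.689 for Psmb7.

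Set against KO crypts, OE crypts had higher levels of several 20S and 19S genes, with 5 members in which no library overlapped, and no member passed the test. These were Psma3 and Psma6 of the alpha ring, the ATPases Psmc1 and Psmc5, and Psmd1. They make up 10.9% of the 46 members, against 4.04% of all genes with every OE library above both KO libraries. No member had every OE library below both KO libraries, against 4.43% of all genes. The log2 difference was above 0 for 30 of 46 members (65.2%), against 49.9% of all genes, and its median was 0.12 over the members and -0.00062 over all genes. Psmc3ip and Psme2b, which match by symbol only, are again among the members above 0. By limma no member or other gene was called (0%), every member had an adjusted p of 1, and 1 member, Psmc5, had an unadjusted p under 0.05 (2.17%, against 2.95% of all genes). That count was 2 without OE 3, where 443 of 12898 genes had such a p. It was 0 without OE 1 (300 of 12945 genes) and without OE 5 (256 of 12935 genes).

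Psmc5 (chr11:106256154-106263120, + strand), an ATPase of the base, had 65.0, 41.6, 37.3, 39.6 and 55.4 scaled TPM in OE and 31.0 and 23.4 in KO, a log2 difference of 0.77 (95% interval 0.084 to 1.46). Psmc1, another ATPase, had 29.0, 21.6, 22.9, 22.5 and 27.0 in OE and 17.6 and 18.0 in KO, a difference of 0.44 (-0.090 to 0.96). The KO values of Psmc1 were nearly alike. Psmd1 had 52.0 to 75.5 in OE and 49.1 and 41.8 in KO, a difference of 0.47 (-0.10 to 1.04). Psma3 had 110.30, 126, 138, 119 and 146 in OE and 66.5 and 110.26 in KO, a difference of 0.56 (-0.081 to 1.21). OE 1 and KO 2 were all but equal for that gene. Psma6 had 57.0 to 65.4 in OE and 56.0 and 44.4 in KO. In the TPM as deposited the OE and KO libraries of Psma3 and Psma6 overlapped, and those of the other 3 genes stayed apart.

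**Figure D4:**
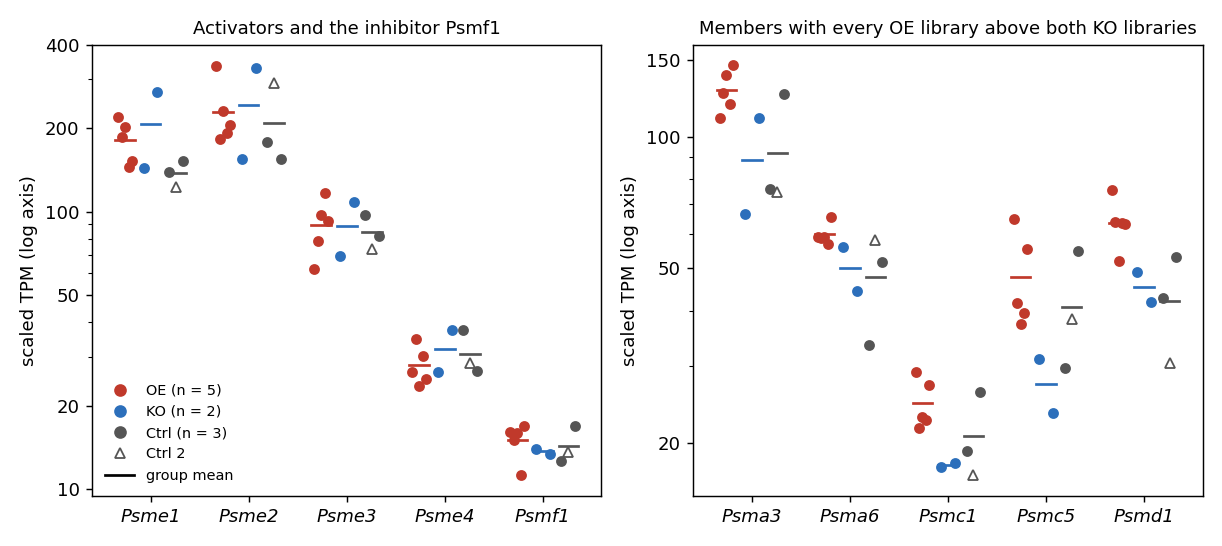
Scaled TPM (log axes) per library, with group means as bars and Ctrl 2 as an open triangle, of PA28 (Psme1, Psme2), the caps Psme3 and Psme4 and the inhibitor Psmf1 on the left, and of the 5 members whose OE and KO libraries did not overlap on the right. On the left the groups overlap for every gene. On the right a Ctrl library lies within the OE range for each gene, such as 125 for Psma3 in Ctrl 3.

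Psmb8 had the widest gap of the catalytic genes between OE and KO, with a log2 difference of 0.67 (-0.29 to 1.64), but KO 2, at 32.6, was above OE 3 and OE 4. The other catalytic genes had 0.45 for Psmb6 (-0.12 to 1.03), 0.29 for Psmb5 (-0.98 to 1.55), 0.14 for Psmb7 (-0.63 to 0.91) and 0.068 for Psmb10 (-0.58 to 0.71). Psma4 had 0.56 (-0.20 to 1.32), Psmb2 0.41 (-0.28 to 1.10), Psmb4 0.20 (-0.58 to 0.98) and Psmd2 0.35 (-0.27 to 0.97). The alpha ring had a median of 0.56, with 6 of 7 genes above 0, and the 14 genes of the constitutive core had one of 0.27, with 12 above 0. Assembly chaperones had a median of -0.19, with 1 of 7 above 0, but their median was 0.13 without KO 2. Which KO library was kept mattered: without KO 2 the median of all members was 0.24 and 39 of 46 were above 0, and without KO 1 it was 0.15 with 26 above 0. Without OE 1, which lay within the Ctrl range for Stat5a and Stat5b, the median was 0.090. In that fit 26 of 46 members (56.5%) were above 0, against 49.2% of all genes. The median was 0.19 without OE 3, 0.21 without OE 4 and 0.078 without OE 5. OE against KO shares its libraries with the other comparisons, so the 3 sets of differences are not independent of each other.

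For PA28 and the other caps of the core the groups overlapped. Psme1, the alpha subunit of PA28 (chr14:55578123-55581529, + strand), had 220, 186, 201, 145 and 153 scaled TPM in OE, 144 and 270.2 in KO, and 139, 123 and 152 in Ctrl. Psme2, the beta subunit (chr14:55587441-55591113, - strand), had 334, 183, 230.1, 193 and 206 in OE, 155 and 331 in KO, and 178, 291 and 154 in Ctrl. OE 1 and KO 2 were high for both genes, and Ctrl 2 was high for Psme2 and the lowest of all libraries for Psme1. The log2 difference of Psme1 was 0.37 between OE and Ctrl (-0.20 to 0.95), 0.52 between KO and Ctrl (-0.20 to 1.23) and -0.14 between OE and KO (-0.80 to 0.51). That of Psme2 was 0.16 (-0.58 to 0.90), 0.18 (-0.75 to 1.10) and -0.017 (-0.86 to 0.83) in the same comparisons.

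Psme3, the nuclear PA28 gamma, had log2 differences of 0.066 between OE and Ctrl (-0.50 to 0.64), 0.052 between KO and Ctrl (-0.66 to 0.76) and 0.013 between OE and KO (-0.64 to 0.67). Psme4, the PA200 cap known for histone degradation, had -0.13 (-0.62 to 0.36), 0.045 (-0.57 to 0.66) and -0.18 (-0.74 to 0.38) in those comparisons. Psmf1, also called PI31, had 0.060 (-0.40 to 0.51), -0.056 (-0.62 to 0.51) and 0.12 (-0.41 to 0.64), with 11.2 to 16.8 scaled TPM in OE, 14.0 and 13.4 in KO, and 12.6 to 16.9 in Ctrl. Of these values, the intervals of Psmf1 are the narrowest and leave room for a change of up to about 0.6 on the log2 scale. Psme2b was listed at 0 or at most 0.210 in 8 libraries, and at 4.19 in OE 3 and 2.68 in OE 4. These are the OE libraries low in Y-linked transcripts, and how reads were split between Psme2b and Psme2 is not given in the sources used here, so its values are uncertain.

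The assembly chaperones build the rings and the base and then leave the finished particle. Psmg4 (chr13:34162964-34178173, + strand), the partner of Psmg3 in alpha ring assembly, had 1.60, 1.55, 2.15, 3.95 and 8.48 scaled TPM in OE, 1.97 and 2.08 in KO, and 4.43, 8.66 and 5.04 in Ctrl. Both KO libraries and the OE libraries other than OE 5 lay below every Ctrl library. The log2 difference was -1.17 between KO and Ctrl (-2.38 to 0.034) and -0.78 between OE and Ctrl (-1.75 to 0.18), with limma adjusted p of 0.943 and 0.755. Values this low are close to the pseudocount, which shrinks the differences. Psmg3 was listed at 3.58 in OE 2 and at 0 in the other OE libraries, at 1.38 in KO 1 and 0 in KO 2, and at 1.01, 0 and 4.45 in Ctrl, with a difference of -0.71 between OE and Ctrl (-2.18 to 0.76).

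Of the chaperones of the 19S base, Psmd9 had a log2 difference of 0.48 between KO and Ctrl (-0.30 to 1.26), and Psmd5 one of -0.22 between OE and KO (-0.80 to 0.36). Psmg1, which pairs with Psmg2 to start the alpha ring, had -0.40 between OE and KO (-1.32 to 0.53), with 7.75 to 12.1 scaled TPM in OE and 7.58 and 23.0 in KO. KO 2 was again the high library, and without it the Psmg1 difference had the opposite sign, at 0.34. Psmd10, known as gankyrin, stayed between 2.32 and 5.29 in all libraries.

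Summed over the genes of the constitutive core, with Psma8 included though below the filter, crypts held 866 to 1408 scaled TPM in OE, 937 and 987 in KO, and 813, 907 and 1075 in Ctrl. Over the genes of the 19S particle, with Psmd8 included though below the filter, the sums were 1145 to 1395 in OE, 1064 and 1520.3 in KO, and 1083, 756 and 1251 in Ctrl. The 46 members and the 3 below the filter took 0.677% to 0.735% of the TPM outside mitochondrially encoded transcripts in OE, 0.613% and 0.788% in KO, and 0.615%, 0.421% and 0.70% in Ctrl. OE libraries kept within a narrow band, and Ctrl 2 was below it by far. In bulk RNA of crypts, fewer cells with a transcript and less of it per cell cannot be told apart.

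Genes that work with the proteasome but lie outside the symbol rule were set beside the members. Of the 20 partners tested, among them assembly, shuttle and regulatory factors, the log2 difference was above 0 for 8 between OE and Ctrl, 10 between KO and Ctrl and 6 between OE and KO, with medians of -0.11, 0.0046 and -0.16, and none was called. Pomp, the maturation factor of the 20S core, had 33.5, 33.2, 21.1, 22.7 and 32.4 scaled TPM in OE, 17.2 and 15.3 in KO, and 19.8, 46.1 and 33.5 in Ctrl. Both KO libraries were below every other library, a log2 difference of -0.91 between KO and Ctrl (-1.71 to -0.11, limma adjusted p = 0.943) and of 0.75 between OE and KO (0.017 to 1.49, adjusted p = 1). Sem1, a small lid subunit, had 0.78 between OE and Ctrl (-0.071 to 1.63), and Ddi2, the protease that releases NRF1, had -0.52 (-1.22 to 0.18). Ubqln2, a shuttle of ubiquitinated proteins, had 1.07 between KO and Ctrl (-0.013 to 2.16), with 24.2 in KO 2 against 7.51 in KO 1. Ube3c, a ubiquitin ligase at the proteasome, had -0.58 between OE and KO (-1.25 to 0.086). Nfe2l1 itself had 17.9 to 26.1 in OE, 30.2 and 22.8 in KO, and 24.99, 18.8 and 42.1 in Ctrl.

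Of the 16 genes of antigen processing and its regulators, 8 had a log2 difference above 0 between OE and Ctrl, 3 between KO and Ctrl and 13 between OE and KO, with medians of 0.0037, -0.20 and 0.27 and none called. Nlrc5, the transactivator of MHC class I genes and of Psmb9, had 8.62, 4.98, 2.26, 3.66 and 2.56 scaled TPM in OE, 0.672 and 5.28 in KO, and 0.960, 0.168 and 1.46 in Ctrl. Every OE library was above every Ctrl library, and the difference of 1.49 (0.39 to 2.59) had a limma adjusted p of 0.755. Between KO and Ctrl it was 0.86 (-0.51 to 2.24), with KO 1 within the Ctrl range. Stat3 had 0.74 between OE and Ctrl (-0.25 to 1.72) and 1.24 between OE and KO (0.12 to 2.37, limma adjusted p = 1), with 59.2, 260, 210, 251 and 126 in OE and 66.7 in each KO library. OE 1 was below both KO libraries. Stat2 had -0.57 between KO and Ctrl (-1.47 to 0.32), and Erap1, which trims peptides after the proteasome, -0.64 between OE and KO (-1.32 to 0.046).

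Leukocytes also express the immunoproteasome, so the summed levels of their markers are given beside it. All 8 leukocyte markers were in the files, and their summed level was 38.1 to 274 scaled TPM in OE, 41.6 and 80.8 in KO, and 25.3 to 46.6 in Ctrl. The defining marker Ptprc was at 0 in several libraries, and reached 4.11 in OE 4 and at most 0.574 elsewhere. The 8 T cell markers summed to 75.4 to 321 in OE, 22.9 and 66.0 in KO, and 40.0 to 167 in Ctrl. Macrophage and dendritic cell markers summed to 22.0 to 220.0 in OE, 119 and 194 in KO, and 6.87 to 25.5 in Ctrl, with Lyz2 alone at 171 and 104 in KO, a gene whose reads can be shared with the Paneth cell gene Lyz1. Lyz1 was at 587 and 2594 in KO, and at 2191, 84.1 and 576 in Ctrl, where Lyz2 was at 10.3, 10.7 and 2.39. Such sharing was not tested. The 6 B and plasma cell markers summed to 21.7 to 189 in OE, 11.9 and 28.3 in KO, and 4.82 to 30.6 in Ctrl, and the 6 fibroblast markers to 2.38 to 78.6, 16.3 and 59.9, and 3.68 to 19.8. The part of leukocytes in the Psmb8 and Psmb10 values was not tested.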

How the data were processed

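Total RNA of ileal crypts was sequenced in 10 libraries, which were grouped by their titles. The authors deposited TPM per Ensembl gene ID, per the file headers of 9 libraries. The header of Ctrl 1 names no unit, and its values match those of the others in scale. Per the submitters' processing notes, TopHat, Cufflinks and mm10 were used. Not given in the sources used here are their roles, the annotation, the strandedness and the depth. IDs were matched to GENCODE M21 (GRCm38, also called mm10), which gave a symbol to 27475 and none to 1512.

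TPM were divided by median-ratio factors (0.295 for Ctrl 2, 0.831 to 1.31 for the others). The 13056 genes with 2 or more libraries at a deposited TPM of 1 or above were tested. The test was limma 3.58.1 (R 4.3.3) with an intensity trend on log2(scaled TPM + 1) of all 10 libraries, with 3 group means, Benjamini-Hochberg adjustment over all genes and a threshold of 0.05. The pseudocount of 1 understates changes of low genes. Log2 differences carry 95% intervals, and permutation tests of correlations used 100000 resamples. The fit was tested on simulated data.

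Of 54 annotated symbol matches 5 were left out, 4 pseudogenes and Psmb9. Without Psmb9 the immunoproteasome set has 2 genes. The pseudogene copies Psmb5-ps and Psmb6-ps were listed at 0 and Psmb7-ps2 at no more than 1.92 scaled TPM. Another annotated gene overlaps 23 members, 18 of them on the other strand, among them Psmb8 (Gm20496), Psmb10 (Gm16156) and Psmb7 (Nek6). Without a stated strand setting their reads cannot be told apart.

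Differences were named for Psmb5 to Psmb10 and the activators in every comparison, for the 2 members with the smallest p of each other role group, and for up to 4 genes of the pathway lists. Nfe2l1, Psmd10, Psma6 and the KO 2 ratios were chosen after their values were seen. The members and lists were chosen with earlier results of these data known.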

Additional observations from a re-analysis of the deposited data

Results flagged for a closer look

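Of 50 sets of 5 OE values examined for a library far from the others, 4 had one, and chance alone gives about 1 in 20. Psmc2, an ATPase of the 19S base, had 30.6 scaled TPM in OE 3, with the next OE library at 22.8. Psma5 of the alpha ring had 77.7 in OE 1, with the next at 41.6. Psma6 of the alpha ring had 65.4 in OE 5, with the next at 59.1. The chaperone Psmg3 had 3.58 in OE 2 and was listed at 0 in the other OE libraries.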

How the results depend on the processing

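No member was called under any alternative run. Over all genes the fits called at most 7 in a comparison, all 7 lower in OE than in KO with no filter on low values, and 5 higher in KO than in Ctrl with that setting. The other settings called at most 3. Of the log2 differences of the named members, 697 of 719 kept their sign under the settings that keep or jointly drop libraries, and 562 of 600 when 1 library was left out. Part of these could not change sign, so the counts overstate how steady the differences are. Robust limma and the changes of filter leave a log2 difference as it is. Leaving out a library of the group not compared moves it only through the scaling. The cause of the changes below was not tested.

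TPM as deposited, unscaled, gave all genes a median of 0.36 in OE against Ctrl and 0.38 in KO against Ctrl, where scaled TPM gave 0.021 and 0.038. Medians of OE against Ctrl were then 0.85 for the alpha ring, 0.72 for the non-catalytic beta ring, 1.07 for the constitutive catalytic, 0.79 for the immunoproteasome, 0.69 for the ATPase, 0.84 for the 19S non-ATPase, 0.49 for the chaperone and 0.57 for the activator genes, and 0.72 for all members. Those of KO against Ctrl were 0.46, 0.73, 0.64, 0.44, 0.46, 0.68, 0.62 and 0.57 in the same order, and 0.63 for all members. Log2 differences that changed sign as deposited were 0.35 for Psme4 in OE against Ctrl, 0.15 for Psmb8 and 0.41 for Psmf1 in KO against Ctrl, and -0.0063 for Psme3 in OE against KO. As deposited, r was 0.812 for Psmb8 with Psmb10, 0.941 for Psmb5 with Psmb6, 0.899 for Psmb5 with Psmb7 and 0.803 for Psmb6 with Psmb7. A common scale shared by all genes of a library enters those values.

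Without the 3 libraries low in Y-linked transcripts, the members' median was 0.52 in OE against Ctrl and 0.29 in OE against KO, and that of the non-catalytic beta ring 0.59 in OE against Ctrl. Signs changed for Psme3 (-0.14) and Psmg3 (0.23) in OE against Ctrl, Psme2 (-0.013), Psme4 (-0.051) and Psmf1 (0.056) in KO against Ctrl, and Psme2 (0.046) and Psme3 (-0.17) in OE against KO. With library weights they changed for Psme3 in OE against Ctrl (-0.074), and for Psmb8 (0.11), Psme3 (-0.092), Psme4 (-0.12) and Psmf1 (0.021) in KO against Ctrl.

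Replicate numbers are shared by the groups, and correlations of same-numbered libraries' deviations from their group means ran from -0.18 to 0.063. With so few libraries behind each mean, these values cannot show whether same-numbered libraries share more than a number. With the replicate block 0 members were called, and 3 genes in OE against Ctrl. Signs changed under the block for Psme3 in OE against Ctrl (-0.098), for Psmb7 (-0.045), Psme4 (-0.060) and Psmf1 (0.0069) in KO against Ctrl, and for Psme2 (0.20) and Psme3 (-0.22) in OE against KO.

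Leaving out 1 library at a time gave these ranges. In OE against Ctrl they were -0.057 to 0.55 for Psmb8, -0.028 to 0.43 for Psme2, -0.035 to 0.19 for Psme3, -0.23 to 0.0094 for Psme4, -0.023 to 0.17 for Psmf1, 0.21 to 1.60 for Psmb5, 0.22 to 0.68 for the constitutive catalytic median and -0.58 to 0.093 for the immunoproteasome minus constitutive value. In KO against Ctrl they were -0.048 to 0.47 for Psmb1, -0.072 to 1.32 for Psmb5, -0.049 to 0.32 for Psmb6, -0.15 to 0.37 for Psmb7, -0.82 to 0.11 for Psmb8, -0.054 to 0.94 for Psmd7, -0.37 to 0.72 for Psme2, -0.27 to 0.37 for Psme3, -0.20 to 0.29 for Psme4 and -0.14 to 0.061 for Psmf1. The constitutive catalytic median ran from -0.049 to 0.37, the activator median from -0.20 to 0.37, and the immunoproteasome minus constitutive value from -0.99 to 0.12. In OE against KO they were -0.12 to 0.26 for Psmb10, -0.071 to 0.47 for Psmb4, -0.12 to 0.40 for Psmb7, -0.61 to 0.17 for Psmd5, -0.59 to 0.31 for Psme1, -0.56 to 0.53 for Psme2, -0.31 to 0.33 for Psme3, -0.42 to 0.069 for Psme4 and -1.14 to 0.34 for Psmg1. The activator median ran from -0.42 to 0.31, the chaperone median from -0.22 to 0.13, and the immunoproteasome minus constitutive value from -0.48 to 0.63. The correlation of Psmb8 with Psmb10 ran from 0.656 to 0.819 and passed the threshold without Ctrl 3. Members at an unadjusted p under 0.05 numbered 1 to 7 in OE against Ctrl, with 7 without Ctrl 3, where 1511 of 12888 genes had such a p. With both KO libraries kept, they numbered 0 to 3 in KO against Ctrl, with 3 without Ctrl 1 (995 of 12930 genes). In OE against KO they then numbered 0 to 2, with 2 without OE 3 (443 of 12898 genes). With 2 KO libraries, leaving out 1 assumes that the other varies like the rest.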
